A study of Homo sapiens with 8 samples.

Results

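The 10 genes described here make and recycle glutathione and feed sulfur into it: CBS, CTH, MAT2A, AHCY, GCLC, GCLM, GSS, GSR, GGCT and GGT1. They were chosen by pathway role, with earlier results of these data known. Matched by symbol, all 10 were found among the 38010 Ensembl gene IDs of the deposited count table. They were measured by bulk RNA-seq in Ea.hy926, an established human line obtained by fusing umbilical vein endothelium with A549 lung carcinoma. The 4 parental libraries came from the Eahy cells and the 4 Rho0 libraries from an OXPHOS-deficient derivative, that is, cells without working oxidative phosphorylation, and both lines were harvested at confluence. The labels call the libraries of a line biological replicates and do not say how the Rho0 cells were made, how many clones they come from or how far apart the cultures were. The p-values therefore measure the spread between cultures of 1 line of each kind. An effect of losing respiration and any other difference that has arisen between the lines cannot be told apart. A549 cells are known for a mutated KEAP1 and high NRF2 activity, and whether the hybrid kept these is not given in the labels.

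Glutathione is the main thiol antioxidant of animal cells. Methionine is activated to S-adenosylmethionine and, after methyl transfer and hydrolysis, leaves homocysteine, which transsulfuration turns into cysteine. Glutamate-cysteine ligase joins cysteine to glutamate, glutathione synthetase adds glycine, glutathione reductase regenerates the reduced form with NADPH, and gamma-glutamyl enzymes take the peptide apart. The transcription factors ATF4, of the integrated stress response, and NRF2, of the oxidant response, are textbook regulators of several of these genes. Only mRNA was measured, not enzyme activity or glutathione, and in bulk libraries fewer expressing cells and less RNA per cell cannot be told apart.

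The libraries held 11721708 to 37203507 estimated counts, so that 1 count was worth 0.0269 to 0.0853 CPM (counts per 1e6) before TMM scaling. Levels below are CPM over the TMM-scaled library size. The Rho0 label was checked on the 13 protein-coding genes of mitochondrial DNA, which made up 16.05% to 21.4% of the parental counts and 0.00296% to 0.149% of those in Rho0 (two-sided exact permutation test, p = 0.0286, the smallest that 70 arrangements allow). Rho0 replicate 2 had the highest share of its line. On the component that carried 6.24% of the variance in a principal component analysis, Rho0 replicate 4 lay at 35.28 and the other Rho0 libraries between -23.73 and 0.46. Of 9 endothelial markers none was under 1 CPM in every library, and their summed level was 4495 to 4928 CPM in the parental line and 4837 to 5145 CPM in Rho0. Single endothelial markers differed more than their sum, with 4 higher (KDR 9.43-fold, PECAM1, TEK and VWF) and 2 lower in Rho0 (CDH5 and ESAM). The 7 epithelial markers summed to 2607 to 2880 and 1295 to 2079 CPM, with KRT19 under 1 CPM and SFTPC at 0. Of the 5 epithelial markers tested, 1 was higher and 2 were lower in Rho0. The 7 fibroblast markers summed to 19.4 to 22.8 and 1.54 to 2.32 CPM. Of these, COL1A2, PDGFRA, PDGFRB, LUM and DCN were under 1 CPM in every library. Only 4 fibroblast markers were tested, with 1 higher and 2 lower in Rho0. With a filter of at least 50 counts in 4 libraries only 1 was tested, at a log2 fold change of -8.58. The sum therefore does not describe the fibroblast set as a whole. The 5 leukocyte markers summed to 1.71 to 2.47 and 5.50 to 6.69 CPM, with CD14 under 1 CPM and CD3E and MS4A1 at 0. Only 2 leukocyte markers were tested, and the 2 were higher in Rho0. Of all genes tested, 29% were called higher and 25.4% lower. The marker differences between the lines were measured beside those of the glutathione genes, and their part in them was not tested.

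Of the 10 genes, all of which were abundant enough to be tested, 4 rose in Rho0 (CBS, GCLM, CTH and GCLC) and 2 fell (GGT1 and GSS). MAT2A, AHCY, GSR and GGCT did not pass the test, which was edgeR's quasi-likelihood test with Benjamini-Hochberg adjustment over 15184 genes and a threshold of 0.05. With the same rule 54.4% of all genes tested were called, 29% higher and 25.4% lower, so the number of called genes among the 10 was near the background and it is the genes and the sizes that are described here. The median log2 fold change of the 10 was 0.07 and that of all genes 0.05. The count of 4 higher held when any 1 of the 8 libraries was left out. The count of 2 lower held too, except without Rho0 replicate 1, when AHCY was called as well and 3 were lower. Libraries were also scaled by size alone, without the TMM factors. These factors ran from 0.801 to 0.921 in the parental line and from 1.11 to 1.19 in Rho0. With size alone 56.5% of all genes were called higher and 10.1% lower, and their median moved to 0.44. Of the 10 genes 6 were then called higher and 1 lower. Those library sizes include the mitochondrial DNA genes, whose mean share was 18.5% of parental and 0.041% of Rho0 counts. The part of this share in the shift was not tested.

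**Figure D1:**
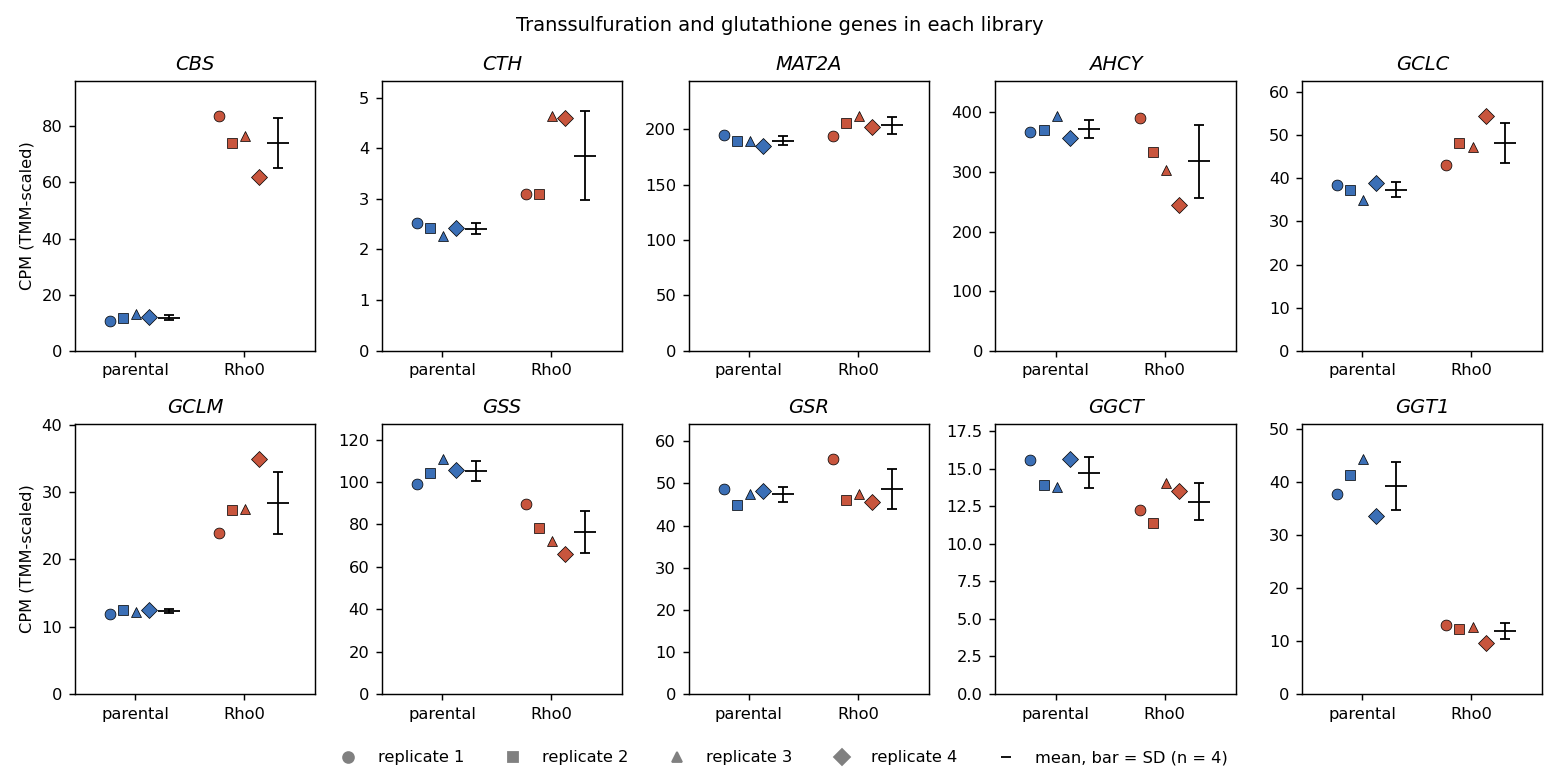
CPM (over the TMM-scaled library size) of the 10 genes in each library, with the axis of each panel starting at 0; symbols mark the replicates and the black bars the mean and SD (n = 4). The Rho0 libraries lie above the parental ones for CBS, CTH, GCLC and GCLM and below them for GSS and GGT1, and the lines overlap for MAT2A, AHCY, GSR and GGCT.

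Transsulfuration, the branch that makes cysteine from homocysteine, showed the largest change of the 10 genes at its first step. CBS encodes cystathionine beta-synthase, which condenses homocysteine with serine (chromosome 21, 43053191 to 43076943, minus strand, GRCh38, GENCODE 29). It stood at 10.6, 11.6, 13.2 and 11.95 CPM in parental replicates 1 to 4 and at 83.6, 74.1, 76.7 and 62.0 CPM in Rho0 replicates 1 to 4. Every Rho0 library was therefore far above every parental one, and the lowest Rho0 value came from replicate 4. The rise was 6.26-fold (log2 fold change 2.65, SE 0.11, edgeR adjusted p = 1.8e-08), and the log2 value was 2.72 without Rho0 replicate 4.

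CBS has a near-identical copy, CBSL, on the same chromosome. Of the different 31-base words in the annotated CBS transcripts, 55.9% also occur in those of CBSL, and 93.8% of the words of CBSL occur in CBS, so reads can be assigned to either. In the deposited table CBSL had no counts in the parental libraries or in Rho0 replicates 1 and 4, and 4 and 9 counts in Rho0 replicates 2 and 3. With both genes summed the log2 fold change was again 2.65.

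CTH encodes cystathionine gamma-lyase, which releases cysteine from cystathionine (chromosome 1, 70411218 to 70439851, plus strand). Its level was the lowest of the 10 genes: 2.52, 2.43, 2.27 and 2.42 CPM in parental replicates 1 to 4, and 3.09, 3.09, 4.63 and 4.60 CPM in Rho0 replicates 1 to 4. All Rho0 libraries were above the parental ones, with replicates 1 and 2 well below replicates 3 and 4. These values rest on 44 to 61 counts in the parental libraries and 41 to 204 in Rho0. CTH rose 1.61-fold (log2 fold change 0.69 with an SE of 0.17, edgeR adjusted p = 0.0065).

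The start of a gene is where its transcription factors are usually looked for, so the 2 promoters are printed here of the called genes with an antioxidant response element core (TGACNNNGC, the core that NRF2 binds) before their first listed start. The sequences are from RefSeq (GRCh38.p14), cover the 250 bases before the annotated start, and read 5′ to 3′ on the gene's strand. The capitals mark the match, which in both lies on the other strand and so reads GCNNNGTCA. The CBS window is chr21:43076378-43076627 on the minus strand. It lies inside the CBS locus as GENCODE 29 draws it, and 1 of its bases falls in an annotated exon. The GCLM window is chr1:93909431-93909680 on the minus strand, outside the gene but for its last 26 bases, which are in an annotated first exon.
CBS: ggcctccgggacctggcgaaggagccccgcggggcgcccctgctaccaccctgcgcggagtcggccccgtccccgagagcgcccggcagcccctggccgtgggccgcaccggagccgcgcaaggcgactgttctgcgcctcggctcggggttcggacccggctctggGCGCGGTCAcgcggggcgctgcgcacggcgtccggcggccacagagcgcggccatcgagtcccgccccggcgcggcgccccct
GCLM: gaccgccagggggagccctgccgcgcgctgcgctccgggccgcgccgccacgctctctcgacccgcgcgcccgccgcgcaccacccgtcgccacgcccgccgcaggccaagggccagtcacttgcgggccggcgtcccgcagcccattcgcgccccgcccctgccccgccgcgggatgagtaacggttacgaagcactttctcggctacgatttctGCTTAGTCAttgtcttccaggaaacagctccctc

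The match begins 83 bases before the start in CBS and 34 bases before it in GCLM. RefSeq promoters were at hand for 7 of the 10 genes, in 12 windows of 300 bases (250 before and 50 after a start). GSS, GSR and GGCT had no window. The windows of CTH and GCLC, which also rose, and the further windows of CBS held no match to either core searched. The core TGACNNNGC, searched on both strands, was in 3 of the 12 windows (the third being an inner start of GGT1, a gene that fell) and in 13.3% of all 35116 windows of the table. The core TGATGNAA of the C/EBP-ATF response element, which ATF4 binds, was in 0 of the 12 and in 3.62% of all windows. No window held both cores, so matches did not overlap, and a match of letters is a description and not a bound site.

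Glutamate-cysteine ligase, the rate-limiting enzyme of glutathione synthesis, rose at both subunits, and more at the modifier than at the catalytic one. GCLM, the modifier subunit that raises the affinity of the enzyme for glutamate (chromosome 1, 93885205 to 93909456, minus strand), had 11.9, 12.5, 12.2 and 12.5 CPM in parental replicates 1 to 4 and 23.8, 27.3, 27.4 and 34.8 CPM in Rho0 replicates 1 to 4. The parental values were tightly grouped, and the highest Rho0 value was that of replicate 4. GCLM rose 2.31-fold (log2 fold change 1.21, SE 0.11, edgeR adjusted p = 8.2e-06).

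GCLC, the catalytic subunit (chromosome 6, 53497341 to 53616970, minus strand), had 38.4, 37.4, 35.1 and 38.8 CPM in parental replicates 1 to 4. In Rho0 replicates 1 to 4 it had 43.2, 48.2, 47.4 and 54.4 CPM, each above the highest parental library, with replicate 4 again the highest. GCLC rose 1.29-fold (log2 fold change 0.37, SE 0.08, edgeR adjusted p = 0.0033). When libraries were corrected for the length and GC content of transcripts the log2 value was 0.17, still called (adjusted p = 0.0095), and that of GCLM was 0.89.

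The next step of synthesis went the other way. GSS encodes glutathione synthetase, which adds glycine to gamma-glutamylcysteine (chromosome 20, 34928433 to 34956027, minus strand). It had 99.3, 104, 111 and 106 CPM in parental replicates 1 to 4 and 89.4, 78.1, 72.0 and 66.0 CPM in Rho0 replicates 1 to 4. The groups did not overlap, and Rho0 replicate 1 came closest to the parental line. GSS fell by 0.46 on the log2 scale (SE 0.09, edgeR adjusted p = 0.0018), but with libraries scaled by size alone the value was -0.071 and not called (adjusted p = 0.45).

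GSR encodes glutathione reductase (chromosome 8, 30678061 to 30727999, minus strand). Its parental values were 48.8, 45.0, 47.6 and 48.3 CPM and its Rho0 values 55.7, 46.0, 47.6 and 45.7 CPM in replicates 1 to 4. The lines overlapped, and only Rho0 replicate 1 stood above the parental range. The log2 fold change was 0.04 (SE 0.08, 95% interval -0.14 to 0.22, edgeR adjusted p = 0.69). Without Rho0 replicate 1 it was -0.056, and with libraries scaled by size alone it was 0.43 and called (adjusted p = 0.0010).

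The methionine cycle genes upstream of CBS were the most abundant of the set and did not pass the test. MAT2A, the methionine adenosyltransferase of most tissues outside the liver (chromosome 2, 85539165 to 85545280, plus strand), had 185 to 195 CPM in the parental libraries and 194 to 212 CPM in Rho0. The log2 fold change was 0.10 (SE 0.06, 95% interval -0.03 to 0.23, edgeR adjusted p = 0.18). It was 0.49 and called when libraries were scaled by size alone (adjusted p = 1.0e-04) and -0.047 after the correction for length and GC content.

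AHCY hydrolyses S-adenosylhomocysteine to homocysteine and adenosine (chromosome 20, 34280268 to 34311802, minus strand). It had 367, 371, 394 and 357 CPM in parental replicates 1 to 4 and 391, 333, 304 and 244 CPM in Rho0 replicates 1 to 4. The Rho0 libraries spread widely: replicate 1 lay within the parental range and the other 3 below it. The log2 fold change was -0.23 (SE 0.12, 95% interval -0.50 to 0.04, edgeR adjusted p = 0.14). It was -0.37 and called without Rho0 replicate 1 (adjusted p = 0.012) and -0.12 and not called without Rho0 replicate 4 (adjusted p = 0.24). The correction for length and GC content gave -0.26, which was called (adjusted p = 0.032), and scaling by library size alone gave 0.16.

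Among the enzymes that take glutathione and gamma-glutamyl peptides apart, GGT1 showed the largest fall of the 10 genes. It encodes the cell-surface gamma-glutamyltransferase that begins the breakdown of extracellular glutathione (chromosome 22, 24583750 to 24629005, plus strand). GGT1 had 37.7, 41.3, 44.3 and 33.7 CPM in parental replicates 1 to 4 and 13.1, 12.2, 12.7 and 9.60 CPM in Rho0 replicates 1 to 4. All Rho0 libraries lay far below the parental ones. It fell by 1.73 on the log2 scale (SE 0.12, edgeR adjusted p = 8.3e-07), which is 3.31-fold lower, and by 1.33 when scaled by library size alone.

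GGT1 belongs to a family of near copies, most of them on the same chromosome, and 22.9% of its 31-base words also occur in GGT2 and 21.8% in GGT3P. GGT2 had 1 to 5 counts in each library and GGT3P none, and with the 5 near copies GGT2, GGT3P, GGTLC1, GGTLC2 and GGTLC3 added the log2 fold change of GGT1 was -1.72. GGCT, the cytosolic cyclotransferase that turns gamma-glutamyl amino acids into 5-oxoproline (chromosome 7, 30496621 to 30504844, minus strand), had 13.8 to 15.6 CPM in the parental line and 11.4 to 14.1 CPM in Rho0. The ranges overlapped slightly and the log2 fold change was -0.20 (SE 0.10, 95% interval -0.41 to 0.01, edgeR adjusted p = 0.11). It was called after the correction for length and GC content, at -0.27 (adjusted p = 0.0091), and stood at 0.19 and uncalled when scaled by library size alone.

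**Figure D2:**
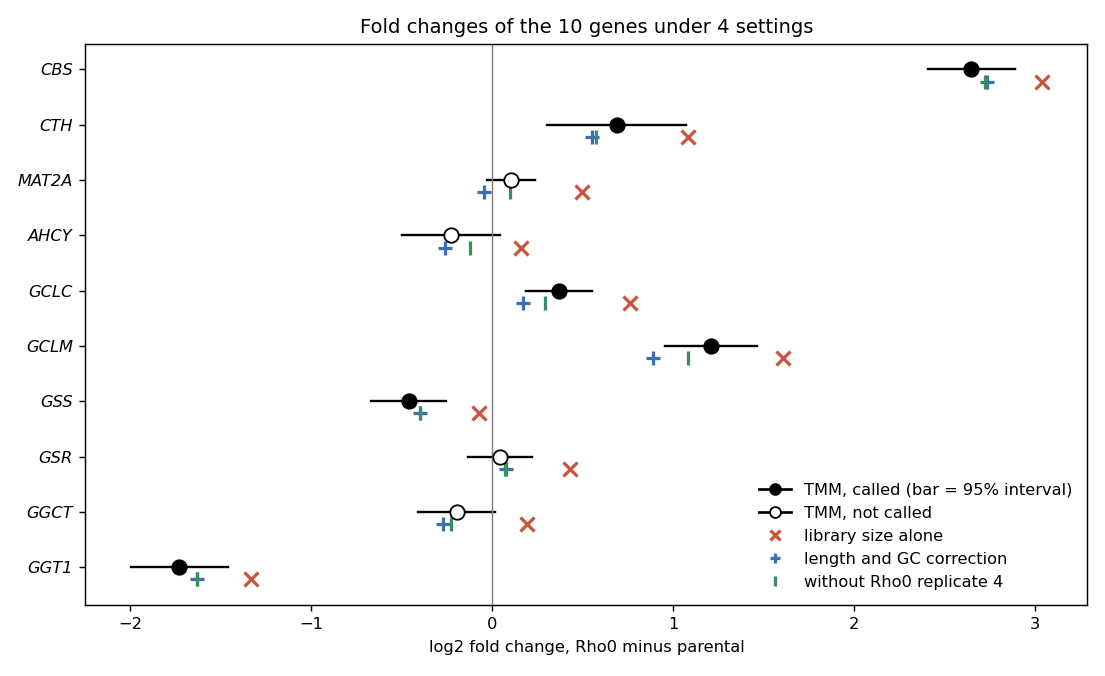
Log2 fold change (Rho0 minus parental) of the 10 genes; circles are the edgeR values with TMM scaling and their 95% interval, filled where called, and the crosses, plus signs and ticks give the value with libraries scaled by size alone, after a correction for length and GC content, and without Rho0 replicate 4. CBS at 2.65 and GGT1 at -1.73 lie farthest from 0 with TMM scaling, while AHCY and GGCT cross 0 with scaling by library size alone and MAT2A crosses it with the correction.

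Rho0 replicate 4, which lay apart in the principal component analysis, gave the highest Rho0 value for GCLC and GCLM and the lowest for CBS, AHCY, GSS, GSR and GGT1. Its part in the differences between the lines can be read from the values without it. They were 0.29 for GCLC, 1.08 for GCLM, -0.40 for GSS, -1.63 for GGT1 and 0.57 for CTH on the log2 scale, all still called. Rho0 replicate 1 lay at the other end of that component, at -23.73. It gave the highest Rho0 value for CBS, AHCY, GSS, GSR and GGT1 and the lowest for GCLC, GCLM and MAT2A. For CTH it was the lowest too, barely below replicate 2. Without replicate 1 the log2 values were 0.39 for GCLC, 1.26 for GCLM, -0.57 for GSS, -1.81 for GGT1 and 0.77 for CTH, also all called.

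To compare the genes with each other, levels were divided by the length of each gene's longest coding transcript. In the parental line the order was AHCY (157 CPM per kilobase), MAT2A (67.3), GSS (38.9), GGT1 (14.9), GSR (14.9), GGCT (12.6), GCLC (9.81), CBS (4.55), GCLM (2.53) and CTH (1.18). GGT1 at 14.9 ± 1.7 and GSR at 14.9 ± 0.53 CPM per kilobase (SD, n = 4) did not differ beyond their spread on this scale. In Rho0, CBS stood next after AHCY and MAT2A, at 28.4 ± 3.5 CPM per kilobase (SD, n = 4), beside GSS at 28.3 ± 3.7, from which it did not differ beyond the spread. There GGT1, at 4.52 ± 0.59 CPM per kilobase, was followed only by CTH, at 1.88. With the median length of the coding transcripts in place of the longest, the order changed in places. In the parental line GSS stood just above MAT2A. There GGT1 kept its place above GSR, at 46.0 against 32.8 CPM per kilobase. In Rho0 GSS stood above CBS, and GGT1, at 13.9 CPM per kilobase, stood above GGCT, at 13.4, and GCLM, at 7.21. The places of GSS and MAT2A among the 10 genes in the parental line therefore depend on the transcript length used. So do those of CBS, GSS, GGCT, GCLM and GGT1 in Rho0.

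Ratios between genes of the same library do not depend on how libraries are scaled. There were 4.22, 4.77, 5.82 and 4.94 CBS counts for each CTH count in parental replicates 1 to 4, and 27.1, 24.0, 16.6 and 13.5 in Rho0 replicates 1 to 4. The Rho0 ratios were all above the parental ones and differed among themselves by more than the parental ones did. In the mean of log2 ratios the lines differed by 1.99, or 3.98-fold (two-sided exact permutation test, p = 0.0286, the smallest possible, and 0.0286 adjusted over the 3 ratios tested).

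The ratio of the modifier to the catalytic subunit of glutamate-cysteine ligase, GCLM to GCLC, was 0.311, 0.335, 0.347 and 0.321 in parental replicates 1 to 4. It was 0.553, 0.566, 0.578 and 0.640 in Rho0 replicates 1 to 4, with no overlap and a narrow spread in both lines. The difference was 0.83 on the log2 scale, 1.78-fold (exact permutation p = 0.0286, adjusted 0.0286). The ratio of the second to the first enzyme of synthesis, GSS to GCLC, went from 2.59, 2.79, 3.16 and 2.72 in the parental replicates to 2.07, 1.62, 1.52 and 1.21 in the Rho0 replicates. The difference was -0.83 on the log2 scale (exact permutation p = 0.0286, adjusted 0.0286). Its call was lost when any 1 of parental replicates 1 to 4 was left out (exact permutation p = 0.0571 in each case, where 0.0286 is the smallest possible), although the lines still did not overlap.

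**Figure D3:**
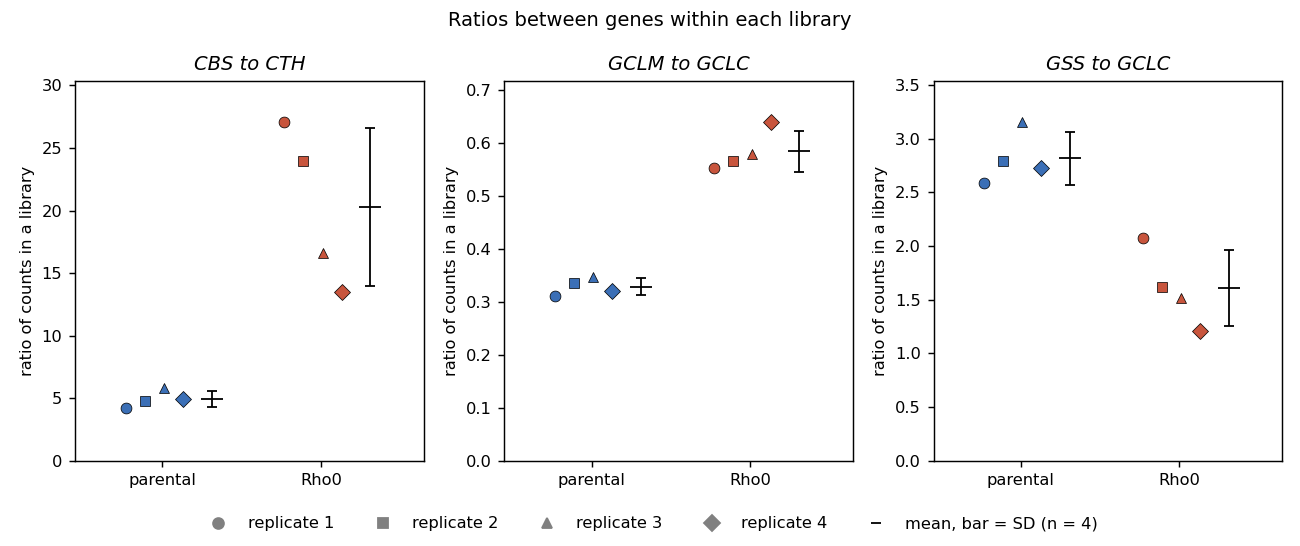
Ratio of counts of CBS to CTH, GCLM to GCLC and GSS to GCLC in each library (not corrected for transcript length); each axis starts at 0, symbols mark replicates, and black bars are the mean and SD (n = 4). CBS to CTH lies between 4.22 and 5.82 in the parental line and between 13.5 and 27.1 in Rho0.

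The genes around the pathway were read from 8 lists chosen by role, with earlier results of these data known. In all, 35 of their 108 tested genes rose and 31 fell. Of all genes tested 29% were higher and 25.4% lower, and the count of each list is to be read beside these shares. The median log2 fold change over the 108 was 0.04, close to that of all genes. With libraries scaled by size alone 67 were higher and 11 lower. The list that supplies cystine, cysteine and glutamate had 5 of 8 tested genes higher and none lower (median 0.58). SLC7A11, the cystine-glutamate antiporter, had 27.6, 25.5, 23.7 and 27.3 CPM in the parental replicates and 89.0, 113, 122 and 180 CPM in the Rho0 replicates (edgeR log2 fold change 2.28 with an SE of 0.19, adjusted p = 3.0e-06). Every Rho0 library was more than 3 times the parental level, and replicate 4 was the highest. After the correction for length and GC content its log2 value was 1.69. SLC1A4, a carrier of neutral amino acids, rose from 4.39 ± 0.371 to 22.7 ± 3.06 CPM (SD, n = 4 each), and CTNS, the lysosomal cystine exporter, rose by 0.77 on the log2 scale. Without Rho0 replicate 4 the list had 6 genes higher and 2 lower.

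Downstream of cysteine, 2 of 11 genes of cysteine breakdown and sulfide oxidation were higher and 3 lower (median -0.10). CSAD, of taurine synthesis, rose from 10.8 ± 0.875 to 27.4 ± 3.25 CPM (SD, n = 4 each). GOT2, the mitochondrial aspartate transaminase, fell by 0.75 and TST, a sulfurtransferase, by 0.58 on the log2 scale, and TST was not called with scaling by library size alone (-0.20, adjusted p = 0.19). CDO1, the dioxygenase that opens cysteine oxidation, had a single count in all 8 libraries. The counts rest on single libraries: without Rho0 replicate 4 they were 4 higher and 4 lower, and the number higher was 1 when any one of parental replicates 1, 2 and 4 or Rho0 replicates 1, 2 and 3 was left out.

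Genes of the methionine cycle and its salvage and polyamine branches had 2 of 14 members higher and 6 lower, with a median of -0.14 that became 0.26 under scaling by library size alone. NNMT, which spends S-adenosylmethionine on nicotinamide, rose 1.69-fold, and the polyamine synthases SMS and SRM each fell, by 0.68 and 0.67 on the log2 scale. SRM was not called with scaling by library size alone (-0.28, adjusted p = 0.084). The liver-type transferase gene MAT1A and the betaine-dependent genes BHMT and BHMT2 were too low to be tested.

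Glutathione breakdown divided between members. Of 11 genes tested, 4 were higher and 4 lower (median -0.02). CHAC1, which cleaves glutathione inside the cell, had 1.19, 0.755, 0.825 and 0.977 CPM in the parental replicates and 9.99, 7.99, 9.69 and 6.54 CPM in the Rho0 replicates, a 9.10-fold rise (log2 fold change 3.19, SE 0.20, edgeR adjusted p = 3.3e-07). GGT5, a relative of GGT1, fell from 265 ± 22.7 to 166 ± 21.6 CPM, and the dipeptidase CNDP2 fell by 0.51 on the log2 scale, a call that scaling by library size alone did not give (-0.12, adjusted p = 0.14). The other called genes, named after their values were seen, were below 5 CPM: GGT7 rose from 0.300 ± 0.122 to 3.08 ± 0.462 CPM, GGACT from 0.839 ± 0.202 to 2.46 ± 0.454 CPM, and DPEP1 and CHAC2 fell by 3.02 and 0.69 on the log2 scale. OPLAH, the 5-oxoprolinase that recycles the product of GGCT and CHAC1, had no count in any parental library and 35, 26, 25 and 49 counts in the Rho0 replicates. Against 3 counts in each parental library, or 0.138 CPM, its mean level in Rho0 was at least 9.29-fold higher. That bound covers the counting error of the parental libraries alone.

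Among glutathione transferases and glutaredoxins, 6 of 21 tested genes were higher and 8 lower, with a median of -0.08 that became 0.31 under scaling by library size alone. GSTA4, which conjugates lipid aldehydes, rose 2.46-fold, while the microsomal MGST2 fell from 55.4 ± 1.103 to 25.4 ± 2.21 CPM (SD, n = 4 each) and GSTCD fell by 0.65 on the log2 scale, a call that was lost when scaled by library size alone. The transport list had 3 of 9 higher and 3 lower (median -0.09). The mitochondrial carrier gene SLC25A10 and the export pump gene ABCC2 fell by 0.92 and 0.73, and the export pump gene ABCC4 rose 1.56-fold. SLC25A39, the carrier that brings glutathione into mitochondria, had 150, 160, 171 and 159 CPM in the parental replicates and 128, 114, 109 and 85.6 CPM in the Rho0 replicates (log2 fold change -0.55 with an SE of 0.11, edgeR adjusted p = 0.0016), but -0.17 and no call (adjusted p = 0.14) with scaling by library size alone.

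The list for NADPH, the reductant used by GSR, had 4 of 15 genes higher and 4 lower. The folate enzymes moved apart: the mitochondrial ALDH1L2 rose from 1.60 ± 0.219 to 27.2 ± 4.41 CPM (SD, n = 4 each), and the cytosolic ALDH1L1 and MTHFD1 fell by 1.65 and 0.99 on the log2 scale.

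**Figure D4:**
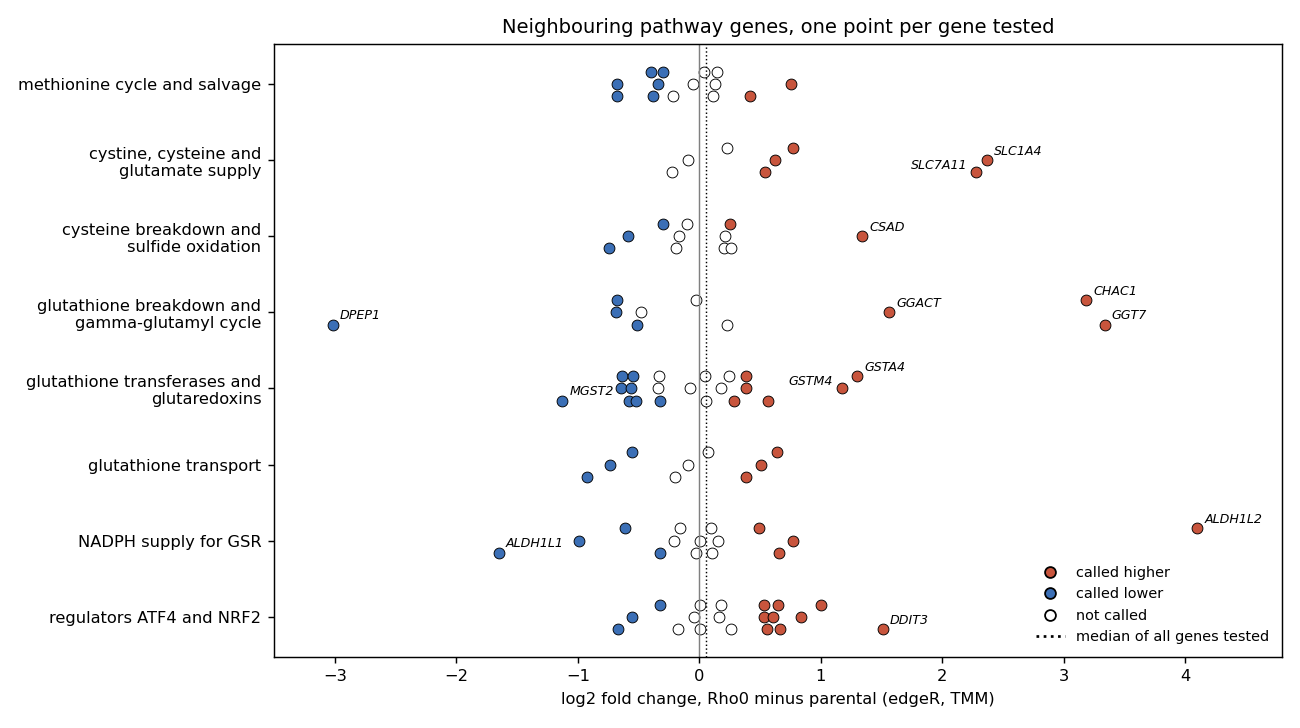
Log2 fold change (Rho0 minus parental, edgeR with TMM) of each tested gene of the 8 neighbouring lists; filled points were called higher or lower, open points were not called, and the dotted line is the median of all genes tested. OPLAH, with no parental count, is left out; the cystine, cysteine and glutamate list has no point called lower, and the other lists have called genes on both sides.

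The mRNAs of both regulators were higher in Rho0. In the list of ATF4, NRF2 and their partners, 9 of 19 genes were higher and 3 lower (median 0.26). Over all genes tested the shares were 29% and 25.4%. ATF4 had 142, 139, 146 and 142 CPM in the parental replicates and 323, 279, 293 and 244 CPM in the Rho0 replicates, a 2.00-fold rise (edgeR adjusted p = 4.0e-06, SE 0.09 in log2 units). DDIT3, which encodes the stress factor CHOP, rose 2.85-fold. NFE2L2, which encodes NRF2, had 30.9, 34.0, 27.2 and 31.3 CPM in the parental replicates and 44.0, 50.3, 60.0 and 66.0 CPM in the Rho0 replicates (log2 fold change 0.84, SE 0.13, edgeR adjusted p = 2.5e-04). KEAP1, the adaptor that marks NRF2 for degradation, fell from 88.1 ± 2.47 to 70.4 ± 7.82 CPM (SD, n = 4 each), by 0.32 on the log2 scale (SE 0.08, edgeR adjusted p = 0.0076). With libraries scaled by size alone its value was 0.065, without a call (adjusted p = 0.48). Both ATF4 and NRF2 are controlled largely after transcription, which these data do not measure.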

How the data were processed

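RNA-seq of 4 parental and 4 Rho0 Ea.hy926 cultures was used. Per the labels' protocols, libraries were strand-specific and enriched for poly-A RNA; kallisto, edgeR, limma and GRCh38 are named in the submitters' processing notes. Not given in the sources used here are strand handling in the counting and the annotation release. The authors deposited estimated counts for 38010 gene IDs and a log2 table of 12885 genes. For 97.8% of 11402 genes with at least 20 counts in every library, the deposited log2 values equalled log2 of the count times 1 factor per library, plus 1, within a relative tolerance of 0.001.

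Rounded estimated counts went into edgeR 4.0.16 under R 4.3.3, scaled with TMM and filtered with filterByExpr (minimum count 10). The quasi-likelihood F-test compared the lines, Benjamini-Hochberg adjustment ran over the 15184 genes kept, and the threshold was 0.05. CPM are over the TMM-scaled library size. SE is the log2 fold change divided by the square root of F, and 95% intervals use the fit's degrees of freedom. Symbols came from a gene name table and GENCODE 29, which named 34284 IDs; the unnamed ones held 1.43% to 1.75% of a library's counts. Of 131 listed genes, 130 were matched. The 10 genes and the lists were chosen with earlier results of these data known. The genes named are the 10, the 8 genes CBSL, GGT2, SLC7A11, CHAC1, ATF4, NFE2L2, KEAP1 and SLC25A39, and in each list up to 3 called genes with the largest change and at least 5 CPM in the higher line; others are identified where they stand, and 1 further gene of the rule is not reported here.

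Ratios were tested by exact two-sided permutation of the absolute difference in mean log2 ratio. Alternatives were DESeq2 1.42.0 size factors and Wald test, library size alone, totals without mitochondrial genes, filtering not at all or at 50 counts in 4 libraries, limma 3.58.1 (voom, and trend on the log2 table), a replicate block, near copies summed, leaving out each library, and a per-library correction for transcript length and GC content by splines with 5 degrees of freedom. On simulated counts for 15184 genes, 71.4% of genes changed 1.5-fold were called, 98% at 2-fold and 100% at 4-fold and 8-fold, with 6 false calls among 186. That simulation changed 50 genes at each fold, evenly up and down, and gave all genes 1 common dispersion. In the data 54.4% of genes were called, so these rates need not hold there. No 2 libraries of a line agreed within sampling noise (lowest chi-square per degree of freedom 4.12). The highest value was 106.1 in Rho0, between replicates 1 and 4, and 27.9 in the parental line, between replicates 3 and 4. A comparison of protein sequences was not made here.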

Additional observations from a re-analysis of the deposited data

Results flagged for a closer look

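Each measure of the 10 genes, their 3 ratios and the mitochondrial share was screened within each line for a library far from the other 3, in 28 groups of 4 values, of which chance flags about 1 in 20. The only one to stand out was the share of counts on mitochondrial DNA genes in Rho0 replicate 2, at 0.149% against 0.00296% to 0.00757% in the other Rho0 libraries (gap to the nearest library 0.968 of the range). No value of the 10 genes and none of their ratios met this criterion.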

How the results depend on the processing

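The log2 fold changes of CBS (2.55 to 3.04), GCLM (0.89 to 1.61), CTH (0.48 to 1.08), GCLC (0.17 to 0.76) and GGT1 (-1.81 to -1.33) kept their direction and their call in all 18 alternatives run on every gene, and those of CBS and GGT1 also with near copies summed. GSS kept its call in 17 and lost it with library size alone (-0.071). That scaling called MAT2A (0.49) and GSR (0.43), turned AHCY (0.16), GGCT (0.19) and KEAP1 (0.065), left 1 of the 10 genes called lower in place of 2, and moved the 8 lists from 35 higher and 31 lower to 67 and 11. The correction for length and GC content called AHCY (-0.26) and GGCT (-0.27), making 4 of the 10 lower, and put MAT2A at -0.047. Within single lists, counts under these settings moved by more than 1.5 times, most of them with library size alone: methionine from 2 higher and 6 lower to 7 and 1, cysteine breakdown from 2 and 3 to 7 and 1, transferases from 6 and 8 to 10 and 1, transport from 3 to 5 higher, NADPH from 4 to 10 higher, and regulators from 9 and 3 to 15 and 1. Glutathione breakdown had 2 lower in place of 4 with that scaling, and 2 and 2 in place of 4 and 4 with the filter of 50 counts, which tests fewer genes. The correction gave 1 methionine gene higher, 2 supply genes lower and 5 regulators lower, and DESeq2 size factors or its Wald test 1 cysteine breakdown gene higher. The causes were not tested.

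With 1 library left out, AHCY ran from -0.37 to -0.12, GSR from -0.056 to 0.070, and the GSS to GCLC ratio from -0.96 to -0.71. Same-numbered libraries of the lines deviated together only weakly (correlations -0.13 to 0.16), and 3 of 8 libraries correlated best with their own number, so the numbers were not taken to pair them. With a replicate block the 10 genes again had 4 higher and 2 lower (CBS 2.64, GGT1 -1.72). CTH, with 41 to 204 counts a library, is the gene of the 10 most limited by depth.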
